A study of Arabidopsis thaliana with 10 samples.

Results

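The comparison described here set the hda9 hos15 double mutant against the wild type in whole Arabidopsis thaliana seedlings. The double mutant carries the alleles hda9 SALK_007123 and hos15-2 SALK_064435, which come from a collection of T-DNA insertion lines, and the wild type (Col) is the ecotype that the labels spell Colombia-0. The hda9 and hos15 single mutants carry one of these alleles each, and the pwr mutant carries SALK_071811C. All 5 genotypes were sampled as 7-day-old seedlings from MS plates of reduced strength with 0.8% agar, kept at 23 °C with 16 hours of light and 8 hours of darkness, at zeitgeber time 12. The labels list 2 libraries per genotype, and the deposited table holds 1 FPKM value (fragments per kilobase of transcript, scaled to sequencing depth) per gene and genotype. Every value below is therefore a level without an error, no test across replicates could be made, and the differences have no replicate check. Of 33297 rows, 18912 (56.8%) reached 1 FPKM in at least 2 of the 5 genotypes and were compared as log2(FPKM + 1), a scale that understates the change of weakly expressed genes. At the edge of this filter, AT3G13020 entered with a second-highest value of 1.00005 FPKM and BZIP27 stayed out with 0.99998 FPKM.

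HDA9 is a histone deacetylase, an enzyme that takes acetyl groups off histone tails, which usually goes with lower transcription. HOS15 is a WD40-repeat protein related to the TBL1 subunits of animal co-repressor complexes, and PWR (POWERDRESS) is a SANT-domain protein. The series' design text describes the 3 proteins as binding one another. The question behind the double mutant is what the transcriptome looks like when both the enzyme and its WD40 partner are lost.

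The double mutant had more low transcripts than high ones. A gene was called higher or lower when its log2 ratio to Col was at least 1 in size, a 2-fold difference. By this rule 281 rows (1.49%) were higher, 739 rows (3.91%) were lower and 1020 rows (5.39%) were called in either direction. Counts of called genes in the gene lists below are to be read beside these shares. The median log2 ratio over all kept rows was -0.07, and 90% of rows, from the 5th to the 95th percentile, lay between -0.92 and 0.67. At least 4-fold differences were found at 28 higher and 56 lower rows. Col was the lowest of the 5 genotypes in 263 of the 281 higher rows and the highest in 689 of the 739 lower rows. The double mutant was the highest of the 5 in 177 of the 281 higher rows, while pwr, not the double mutant, was the lowest in 564 of the 739 lower rows. These rows were chosen by the gap between Col and the double mutant, and that choice by itself favours such ranks for both genotypes. All ratios share the 1 Col value. Among the genes described below, bHLH38, BHLH101, IMA3, FER1, AMT1;1, COR15B, DREB1A, MEB1, WRKY33, AGP10, FBR12, 3xHMG-box2, CIP1, LHCB2.3, PSAG, PKL, HAF01, LNK1, LNK2 and others overlap another annotated gene on the opposite strand. The labels name a stranded kit but not whether counting used the strand, so reads of such pairs may be mixed.

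**Figure D1:**
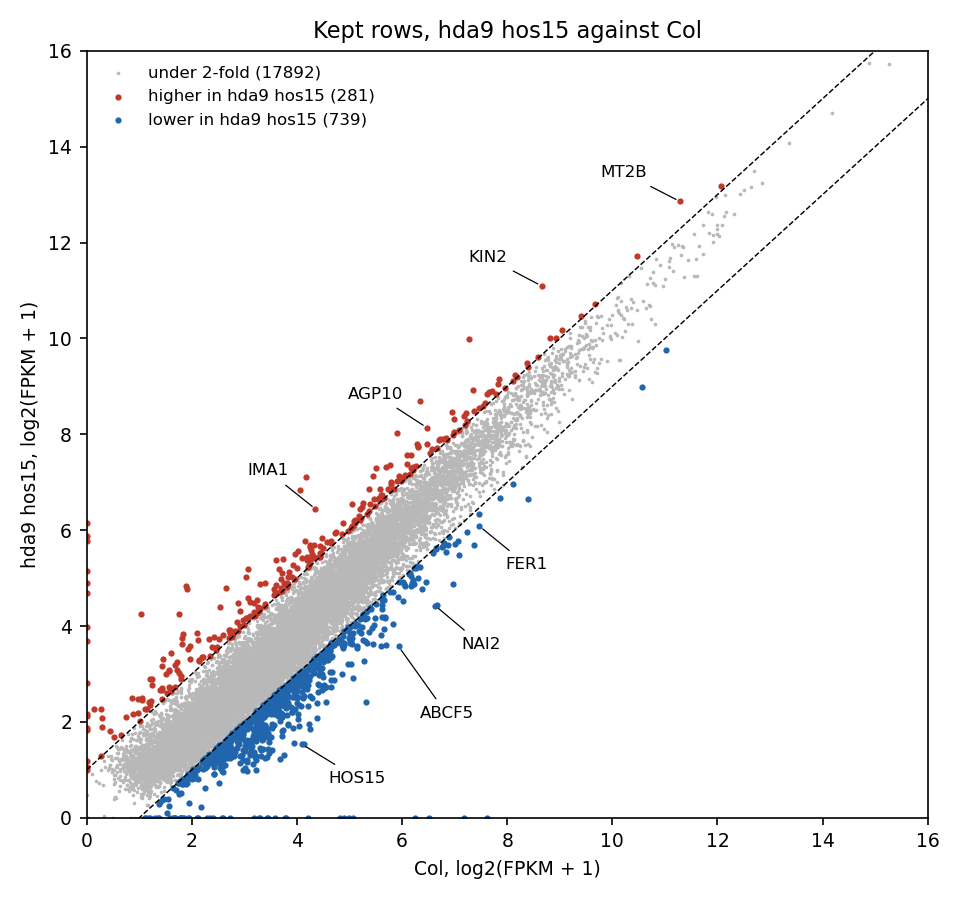
Each point is 1 of 18912 kept rows, with log2(FPKM + 1) in Col on the horizontal axis and in the hda9 hos15 double mutant on the vertical axis; dashed lines mark 2-fold differences. The 739 lower rows (blue) outnumber the 281 higher rows (red) and crowd at low to middle levels. MT2B and KIN2 are labelled on the higher side.

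The labelled tissue was checked by marker genes of organs that a seedling has or lacks. Summed FPKM of 9 dry-seed markers lay between 0.548 and 2.28 over the 5 genotypes, and none of them passed the filter. Summed FPKM of flower and pollen markers lay between 24.1 and 29.5, with 3 of 10 kept. These 3 were TPD1, SEP3 and PI, at 24.7, 3.05 and 1.03 FPKM in the double mutant, and TPD1 held most of the sum. The floral organ gene AP3 was at 0.09 FPKM in Col and listed at 0 in hos15, pwr and the double mutant. Green-shoot markers summed to 42811 in Col and 60141 in the double mutant, with 11 of 12 kept and 0 called. Of these kept markers 7 lay above Col and 4 below, with a median log2 ratio of 0.21. Root markers summed to 1603 and 1169, with 10 of 12 kept and 0 called. Most of that sum was PYK10, which fell from 1441 to 979 FPKM. By direction, 7 kept root markers were above Col and 3 were below, and their median log2 ratio was 0.18. In whole seedlings, fewer cells of a type and less RNA per cell cannot be told apart, and the part of these marker differences in the results below was not tested.

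The mutated genes were low in the double mutant. HDA9, locus AT3G44680 on chromosome 3, measured 7.79 FPKM in Col, then 1.70 (hda9), 10.7 (hos15), 10.9 (pwr) and 1.76 (double mutant). HOS15, locus AT5G67320 on chromosome 5, reached 1.89 FPKM in the double mutant, where Col had 16.2, hda9 4.37, hos15 2.16 and pwr 3.17. HDA9 was thus low only where hda9 was mutated, whereas HOS15 was low in all 4 mutants. The HOS15 transcript holds 57.9% purine (A + G). Its log2 ratio in the double mutant was -2.57, or -1.46 after the adjustment for transcript sequence described below. That trend with sequence is present in all 4 mutants, and its part in the HOS15 values of hda9 and pwr was not tested. PWR, which carries no mutation in the double mutant, stood at 8.38 FPKM in Col and 10.2 there. Of the genes next to these loci, NRAMP4, an exporter of iron and manganese from the vacuole that lies beside HOS15, was at 17.9 FPKM in wild-type Col seedlings, at 34.8 with hda9, 31.7 with hos15, 31.7 with pwr and 38.9 with both lesions. The other kept neighbours stayed under 2-fold, with log2 ratios of -0.17 for MYBR1, a MYB factor that overlaps other genes, -0.65 for AT3G44670 and -0.48 for AT5G67340. Over the chromosomes the share of higher rows was 2.07% on chromosome 3, where HDA9 lies, 1.45% on chromosome 5, where HOS15 lies, and 1.22% to 1.34% on the others. Lower rows made up 3.78% to 4.18% on every chromosome. What these shares reflect was not tested.

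Cold-inducible transcripts held the largest rise among protein-coding genes with a symbol. KIN2, a small hydrophilic protein induced by cold, drought and abscisic acid, measured 401 FPKM in Col, then 1397 (hda9), 1310 (hos15), 1931 (pwr) and 2187 (double mutant), a log2 ratio of 2.44. COR15A, a chloroplast protein that protects membranes during freezing, reached 159 FPKM in the double mutant, where Col had 50.7, hda9 81.1, hos15 96.6 and pwr 96.5. For both genes the double mutant was the highest of the 5 genotypes and Col the lowest. The tandem copies behaved alike: KIN1 had a log2 ratio of 2.00 and COR15B one of 1.57, although reads of such near-identical neighbours can be split between them. Of 14 kept cold-regulated effector genes these 4 were higher and 0 were lower, with a median log2 ratio of 0.19. The dehydrins COR47, LTI30 and ERD10 had log2 ratios of -0.57, -0.94 and -0.34, so the increase was not shared by the whole list. Outside the list, the dehydrin AT1G54410 had the largest fall in FPKM among protein-coding genes, with Col at 1512, the double mutant at 506, hda9 at 385, hos15 at 418 and pwr at 184. Its log2 ratio was -1.58, or -0.64 adjusted, and every mutant lay below Col.

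Among the regulators of the cold response, DREB1A and CBF1 showed small values. DREB1A, also known as CBF3, an activator that binds the CCGAC element of cold-inducible promoters, was at 1.65 FPKM in wild-type Col seedlings, at 2.52 with hda9, 2.24 with hos15, 4.40 with pwr and 5.37 with both lesions. It was 1 of 2 of the 15 kept members of that list called higher, beside the zinc-finger gene STZ. STZ peaked in hda9, with 105 FPKM, and the double mutant, with 28.2, was the lowest of the mutants, against 12.8 for Col. The log2 ratio of STZ was 1.09, or 0.75 adjusted, which is under the rule, so that 1 member was higher after adjustment. Below Col lay 10 of the 15, and the list median was -0.20, or 0.13 adjusted. CBF1 and CBF2 had log2 ratios of 0.95 and 0.58, and ICE1, which activates CBF3, one of -0.07. Upstream of the drought branch, NCED3, the rate-limiting enzyme of abscisic acid synthesis under drought, measured 1.74 FPKM in Col, then 3.37 (hda9), 3.88 (hos15), 5.71 (pwr) and 8.90 (double mutant). Of 19 kept abscisic acid and drought response genes, 1, the lipid transfer gene LTP3, was higher and 0 were lower. The median of that list was -0.31, and 0.04 after the adjustment for transcript sequence described below.

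The upstream sequences of KIN2 and COR15A are shown because these 2 genes carry the cold result. Each is the 250 bases before the annotated gene start in RefSeq's annotation of TAIR10.1, 5′ to 3′ on the gene's strand; capitals mark CCGAC and ACGTG, the core bound by abscisic-acid-responsive bZIP factors, on either strand. The windows lie at chr5:5211469-5211718 on the plus strand for KIN2 and chr2:17712331-17712580 on the minus strand for COR15A.
KIN2: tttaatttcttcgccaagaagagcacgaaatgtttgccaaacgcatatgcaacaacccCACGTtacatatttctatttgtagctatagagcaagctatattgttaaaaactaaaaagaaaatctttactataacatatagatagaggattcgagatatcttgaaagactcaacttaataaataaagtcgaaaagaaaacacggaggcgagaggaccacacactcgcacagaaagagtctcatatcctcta
COR15A: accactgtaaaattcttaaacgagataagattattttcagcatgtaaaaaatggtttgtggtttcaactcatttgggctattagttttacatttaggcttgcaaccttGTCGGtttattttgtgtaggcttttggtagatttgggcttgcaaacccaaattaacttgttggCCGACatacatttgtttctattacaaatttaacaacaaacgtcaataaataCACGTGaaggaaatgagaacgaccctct
COR15A holds 2 copies of CCGAC, starting 142 and 79 nt before the start, and a palindromic ACGTG core 28 nt before it. KIN2 holds 1 ACGTG core, 192 nt before the start, and no CCGAC in this window. Over 18078 kept protein-coding genes, 12.9% of the windows hold CCGAC and 23.5% hold ACGTG. Among the 227 higher genes the shares were 13.2% and 33.9%, and among the 673 lower genes 15.6% and 26.6%. Among genes called after sequence adjustment ACGTG was in 34.5% of the higher and 33.8% of the lower windows, so the gap between higher and lower calls was not kept. A match is a description of letters and not of a bound site.

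Transcripts of the iron-deficiency signal were high together, and the ferritin transcript FER1 was low. Plants short of iron induce the IRON MAN (IMA) signalling peptides and a clade of bHLH factors of subgroup Ib, which drive uptake at the root surface, and reduce ferritin, the protein shell that stores iron. IMA1 (AT1G47400) reached 86.0 FPKM in the double mutant, where Col had 19.4, hda9 73.3, hos15 56.8 and pwr 85.0, a log2 ratio of 2.09. IMA2 was at 44.6 FPKM in wild-type Col seedlings, at 131 with hda9, 92.6 with hos15, 127 with pwr and 156 with both lesions. Both peptide genes were high in every mutant and highest in the double mutant. IMA3 had a log2 ratio of 0.73.

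Of the subgroup Ib factors, bHLH38 measured 7.39 FPKM in Col, then 17.1 (hda9), 14.3 (hos15), 11.0 (pwr) and 23.1 (double mutant). Its neighbour bHLH39 reached 49.2 FPKM in the double mutant, where Col had 18.1, hda9 49.0, hos15 39.4 and pwr 43.2. BHLH100 was at 21.3 FPKM in wild-type Col seedlings, at 69.0 with hda9, 31.9 with hos15, 37.7 with pwr and 56.2 with both lesions. These 3 were called higher, although the neighbours bHLH38 and bHLH39, like IMA1 and IMA2, may share reads, and the fourth, BHLH101, had a log2 ratio of 0.20. Col was the lowest genotype for all 4 factors.

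Genes of transport and storage differed in direction. OPT3, a phloem transporter through which shoots report their iron status, measured 72.9 FPKM in Col, then 150 (hda9), 135 (hos15), 163 (pwr) and 158 (double mutant), and NRAMP4 was described above. FER1, the main leaf ferritin, reached 66.8 FPKM in the double mutant, where Col had 176, hda9 75.6, hos15 67.8 and pwr 63.7, so that the 4 mutants lay close together well under the Col level. FER4 had a log2 ratio of -0.94 and FER3 one of -0.17. The root uptake machinery did not pass the rule: the ferric reductase FRO2 had a log2 ratio of 0.03, the transporter IRT1 one of 0.23, against 1.46 in hda9, and their activator FRU, also known as FIT, one of -0.55.

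In the list of nitrogen, phosphate, sulphur and iron supply genes, 7 of 45 kept members were higher and 1 was lower, with a median of 0.20. Iron genes made up 6 of the 7, and the other was AMT1;1, an ammonium transporter, with a log2 ratio of 1.13, or 0.53 adjusted. A wider list of iron uptake, regulation and storage genes, drawn up after these values were seen, had 7 of 43 kept members higher and 3 lower, with a median of 0.21. Its lower members were FER1 and the vacuolar iron transporter-like proteins MEB1 and MEB2, which sit in the membrane of endoplasmic reticulum bodies. After adjustment for transcript sequence the log2 ratios were 1.93 for IMA1, 1.60 for IMA2, 1.73 for bHLH38, 0.75 for OPT3 and -1.39 for FER1.

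The upstream windows of 4 of these genes are shown because they carry the iron result; capitals mark ACGTG on either strand, which in the symmetric form CACGTG is the G-box bound by bHLH and bZIP factors.
IMA1: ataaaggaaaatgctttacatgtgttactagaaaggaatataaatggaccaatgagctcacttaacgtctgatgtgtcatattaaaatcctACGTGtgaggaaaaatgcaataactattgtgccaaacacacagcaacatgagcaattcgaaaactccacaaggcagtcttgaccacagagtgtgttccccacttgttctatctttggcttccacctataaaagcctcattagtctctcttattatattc
IMA2: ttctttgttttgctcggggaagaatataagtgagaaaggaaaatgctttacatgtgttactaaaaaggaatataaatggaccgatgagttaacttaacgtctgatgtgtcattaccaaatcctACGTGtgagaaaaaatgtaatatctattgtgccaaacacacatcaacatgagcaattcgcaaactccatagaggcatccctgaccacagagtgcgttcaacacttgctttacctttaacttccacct
bHLH38: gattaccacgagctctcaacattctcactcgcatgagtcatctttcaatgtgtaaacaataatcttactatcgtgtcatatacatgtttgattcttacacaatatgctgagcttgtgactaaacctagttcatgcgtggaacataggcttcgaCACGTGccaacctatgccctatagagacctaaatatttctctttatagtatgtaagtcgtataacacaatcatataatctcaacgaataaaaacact
BHLH100: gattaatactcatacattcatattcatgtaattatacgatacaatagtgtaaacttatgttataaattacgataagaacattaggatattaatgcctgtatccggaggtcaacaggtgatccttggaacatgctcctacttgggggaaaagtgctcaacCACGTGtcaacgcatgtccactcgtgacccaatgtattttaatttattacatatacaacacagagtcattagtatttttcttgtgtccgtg
These are the 250 bases before the gene start in TAIR10.1, at chr1:17385457-17385706 on the plus strand for IMA1, chr1:17382748-17382997 on the plus strand for IMA2, chr3:21085246-21085495 on the minus strand for bHLH38 and chr2:17199455-17199704 on the minus strand for BHLH100. The full G-box starts 97 nt before the start of bHLH38 and 91 nt before that of BHLH100. It is present in 7.19% of the windows of all kept protein-coding genes, in 13.2% of those of the higher genes and in 9.06% of those of the lower genes. Among genes called after sequence adjustment the shares lay close together, at 17 of 148 higher (11.5%) and 26 of 216 lower windows (12.0%). Both were above the 7.19% of all kept protein-coding genes. CCGAC is absent from all 4 windows.

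**Figure D2:**
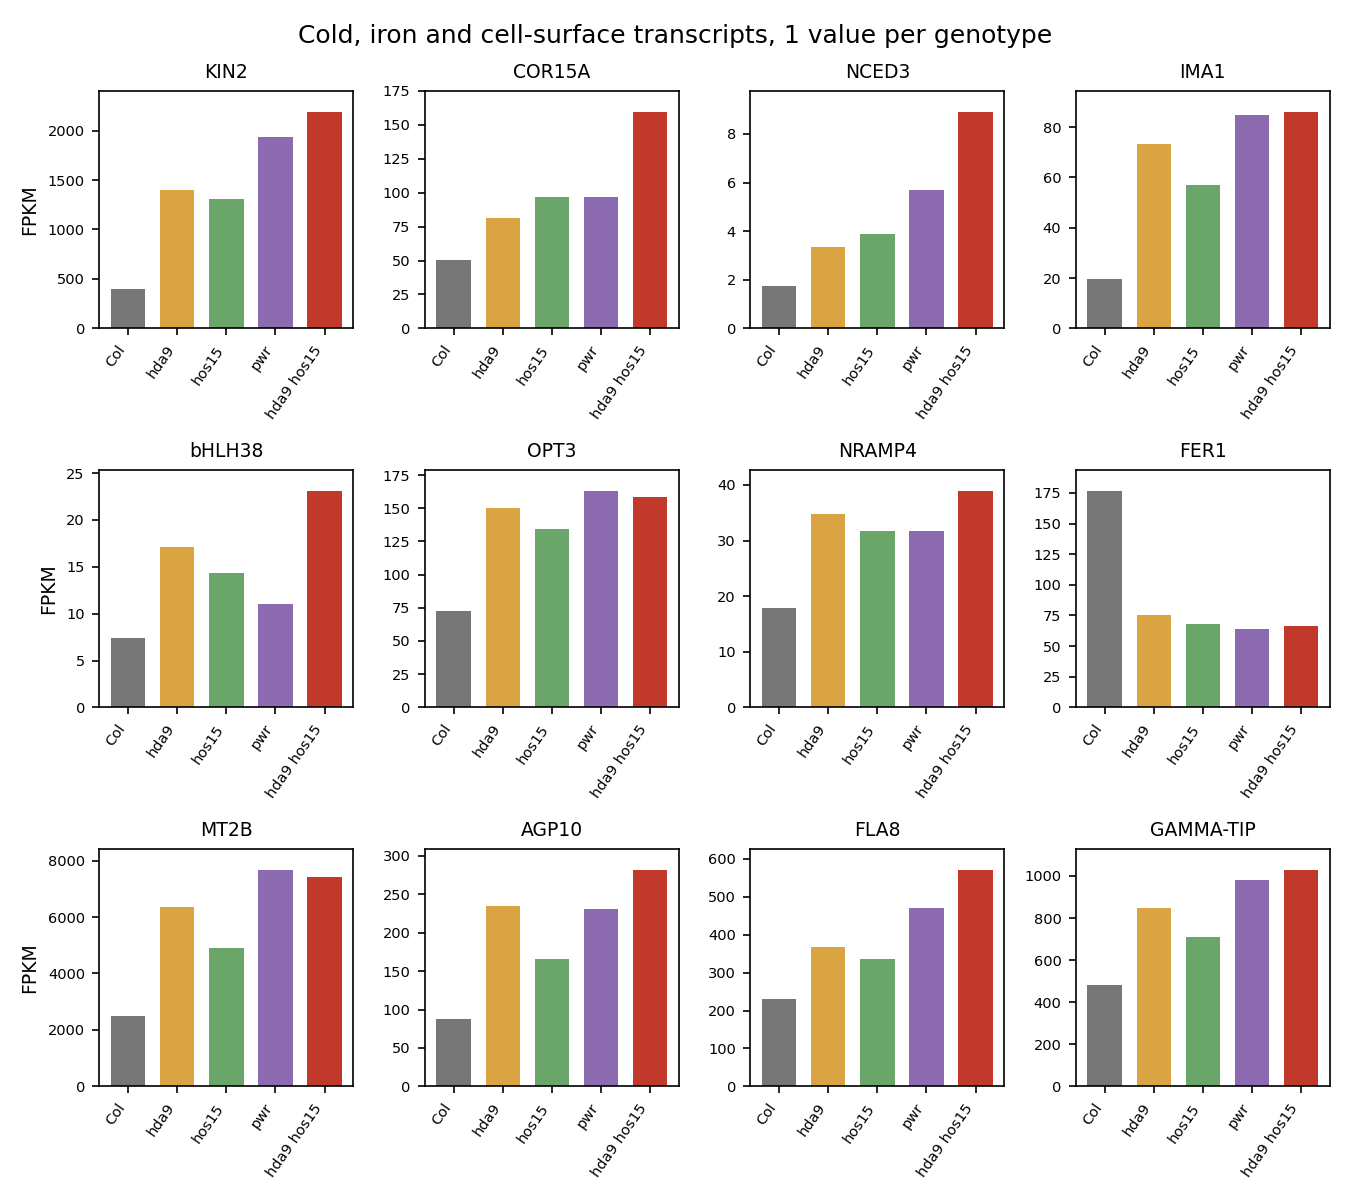
Bars give the deposited FPKM of 12 genes for the 5 genotypes, 1 value each, each on its own axis from 0. Col is the lowest bar for 11 genes and the highest for FER1, and KIN2, COR15A, NCED3 and bHLH38 peak in the double mutant.

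Metallothioneins, small cysteine-rich proteins that bind copper and zinc, included some of the most abundant transcripts that were higher. MT2B was at 2489 FPKM in wild-type Col seedlings, at 6358 with hda9, 4909 with hos15, 7661 with pwr and 7429 with both lesions, and MT2A at 1412, 3152, 2898, 3763 and 3364 FPKM in the same order. Of 5 kept metallothionein genes, a family grouped after the data were seen, 2 were higher and 0 lower, and all 5 lay above Col. Other rises among highly expressed genes were PSBTN, a small subunit of photosystem II, from 4270 in Col to 9291 FPKM in the double mutant, the thioredoxin gene ATHM2, from 808 to 1690, and FBR12, the translation factor eIF5A, from 676 to 1416. For these 3 the sequence-adjusted log2 ratios were 0.63, 0.74 and 0.71, under the 2-fold rule, against 1.07 for MT2B and 1.33 for MT2A.

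Genes for cell-surface proteins rich in proline, serine and alanine were high as a family. Arabinogalactan and fasciclin-like proteins are heavily glycosylated proteins of the plasma membrane and wall that take part in growth and adhesion. AGP10 measured 87.5 FPKM in Col, then 235 (hda9), 165 (hos15), 231 (pwr) and 281 (double mutant). FLA8 reached 570 FPKM in the double mutant, where Col had 229, hda9 367, hos15 337 and pwr 471. Both were highest in the double mutant, and 40 of 42 kept members of the family, which was grouped after the data were seen, lay above Col there. Of these, 7 were higher and 0 lower, with a median log2 ratio of 0.64, which was 0.25 after sequence adjustment, with 2 members, AGP10 and AGP27, still higher. Among 69 kept lipid transfer protein genes, another family grouped after the data were seen, 8 were higher and 3 lower, and after sequence adjustment 0 were higher and 6 lower.

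Aquaporins, the water channels of the plasma membrane and vacuole, lay above Col at 24 of 26 kept members, with a median of 0.38, and 1 was called. That gene, GAMMA-TIP, a channel of the vacuole membrane, was at 483 FPKM in wild-type Col seedlings, at 847 with hda9, 709 with hos15, 981 with pwr and 1028 with both lesions. Its relative TIP2 lay just under the rule, at 1149 FPKM in Col but 2292 with both lesions. After sequence adjustment the median was 0.21 and no aquaporin was called. Of 22 expansins, which loosen cell walls, 0 were called, with a median of 0.28, or 0.04 adjusted.

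Of the 42 members of the photosystem and light-harvesting list, which does not hold PSBTN, 35 lay above Col and 0 were called, with a median of 0.28 that became 0.03 after adjustment. PSAG, a subunit of photosystem I, came closest on the higher side, at 4005 FPKM in Col but 7945 with both lesions. LHCB2.3, an antenna protein of photosystem II, lay on the other side, with Col at 240 FPKM and hda9, hos15, pwr and hda9 hos15 at 152, 115, 155 and 123. The 17 Rubisco and Calvin cycle genes had a median of 0.03 and 0 calls. ICL, the glyoxylate-cycle enzyme that seedlings use to turn seed oil into sugar, measured 4.81 FPKM in Col, then 11.6 (hda9), 14.7 (hos15), 21.3 (pwr) and 20.2 (double mutant), and was the single call among 21 genes of that pathway and of fatty acid breakdown. MLS, the next enzyme of the cycle, had a log2 ratio of 0.13.

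Light signalling genes were mostly low. Of 39 kept photoreceptor and light signalling genes 35 lay below Col, with a median of -0.31, or -0.16 after adjustment. Calls were 3 lower (7.69%), against 3.91% of all rows, and 0 higher. PIF7, a bHLH factor that drives stem growth in shade, reached 4.78 FPKM in the double mutant, where Col had 13.2, hda9 5.37, hos15 6.67 and pwr 4.40. PIL6, also known as PIF5, was at 27.5 FPKM in wild-type Col seedlings, at 16.7 with hda9, 20.6 with hos15, 14.4 with pwr and 12.1 with both lesions. The third was FHY1, which carries phytochrome A into the nucleus, at 14.8 FPKM in Col but 6.78 with both lesions. PIL6 was lowest in the double mutant, PIF7 in pwr. PIF4 had a log2 ratio of -0.82 and did not pass.

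MEE3, a small MYB-like protein of the RADIALIS family, had one of the largest falls that sequence adjustment left in place. It measured 22.6 FPKM in Col, then 8.13 (hda9), 6.19 (hos15), 2.63 (pwr) and 4.37 (double mutant), a log2 ratio of -2.13, or -2.11 adjusted. CIPK20, a calcium-sensor-regulated protein kinase, reached 1.35 FPKM in the double mutant, where Col had 11.8, hda9 2.72, hos15 3.19 and pwr 1.60. Both were low in all 4 mutants. The auxin-response gene IAA2 was at 63.7 FPKM in wild-type Col seedlings, at 28.2 with hda9, 32.8 with hos15, 13.0 with pwr and 21.9 with both lesions. With IAA1 and ARF19 it made up the 3 lower (6.67%) of 45 kept auxin genes, against 3.91% of all rows. Of these 45 genes 0 were higher, and their median was 0.03. After adjustment IAA2 stayed lower, at -1.11, while IAA1 and ARF19 did not, at -0.70 and -0.81. Of 29 kept cytokinin genes, response regulators with genes of synthesis and breakdown, 1 (3.45%) was lower, near the 3.91% of all rows, and 0 higher. It was RR5, an early cytokinin-induced gene, at 4.62 FPKM in Col but 1.53 with both lesions, while the related ARR6 missed the rule at -0.99. After adjustment 2 were lower, RR5 at -1.07 and ARR15 at -1.02, where 1.19% of all adjusted genes were lower.

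Genes of endoplasmic reticulum bodies and of the mustard-oil defence were low in the double mutant. Endoplasmic reticulum bodies are stores of β-glucosidases in Brassicaceae, and myrosinases are the β-glucosidases that release toxic products from glucosinolates when tissue is damaged. All 15 kept members of this list lay below Col before adjustment, 7 (46.7%) were lower, against 3.91% of all rows, and 0 higher. Their median was -0.84, or -0.63 after adjustment with 4 lower, where 1.19% of all adjusted genes were lower. BGLU18 lay at -0.29, or 0.03 adjusted. NAI2, the protein that shapes these bodies, measured 98.3 FPKM in Col, then 16.9 (hda9), 26.9 (hos15), 10.6 (pwr) and 20.4 (double mutant). TGG2, a myrosinase of guard cells and phloem idioblasts, reached 101 FPKM in the double mutant, where Col had 231, hda9 91.1, hos15 103 and pwr 93.2. The 4 mutants lay close together for TGG2 and were all below Col for NAI2.

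Members of the list differed in size of change. PYK10, the main β-glucosidase of root endoplasmic reticulum bodies, was at 1441 FPKM in wild-type Col seedlings, at 989 with hda9, 1086 with hos15, 927 with pwr and 979 with both lesions, a log2 ratio of -0.56. NAI1, the bHLH factor that activates the set, had a log2 ratio of -0.52 and the second myrosinase TGG1 one of -0.60. BGLU35 had -1.35, BGLU22 -1.07, MEB1 -1.29 and MEB2 -1.25. Of 23 kept glucosinolate synthesis genes, which make the substrate, 0 were called and the median was 0.14.

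Defence regulators were low, and several were lower in the double mutant than in hda9 or hos15. Of 51 kept WRKY transcription factors, 8 (15.7%) were lower, against 3.91% of all rows, and 0 higher. Their median was -0.40, or -0.16 adjusted with 5 lower. WRKY70, which acts downstream of salicylic acid, measured 7.71 FPKM in Col, then 5.18 (hda9), 6.15 (hos15), 2.35 (pwr) and 2.08 (double mutant). WRKY33, a regulator of camalexin synthesis, reached 6.38 FPKM in the double mutant, where Col had 17.65, hda9 20.7, hos15 23.0 and pwr 7.46. WRKY18 was at 16.6 FPKM in wild-type Col seedlings, at 21.7 with hda9, 26.0 with hos15, 10.3 with pwr and 5.52 with both lesions. For WRKY33 and WRKY18 both single mutants lay above Col and the double mutant below it, and WRKY18 was lowest in the double mutant.

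Of 20 kept salicylic acid genes, 18 lay below Col, with a median of -0.43, or -0.27 adjusted. Of the 20, 3 (15%) were lower, against 3.91% of all rows, and 0 higher. Beside WRKY70 these were PCC1, at 6.72 FPKM in Col but 2.58 with both lesions, and SAG101, a partner of EDS1, at 8.02 and 3.31. EDS1 itself had a log2 ratio of -0.99, or -0.31 adjusted. The immune receptors had 0 calls among 23 kept members and a median of -0.27. Plant defensins went the other way: 2 of 10 kept members (20%) were higher, against 1.49% of all rows, and 0 lower. Their median was 0.60, or 0.35 adjusted with 1 higher. PDF1.2b measured 9.51 FPKM in Col, then 67.2 (hda9), 33.0 (hos15), 29.2 (pwr) and 28.7 (double mutant), so that the double mutant was the lowest of the mutants, and defensin copies can share reads. Touch- and wound-inducible genes, whose median was 1.23 in hda9 and 0.96 in hos15, had a median of -0.04 in the double mutant, with 1 higher and 4 lower of 31.

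**Figure D3:**
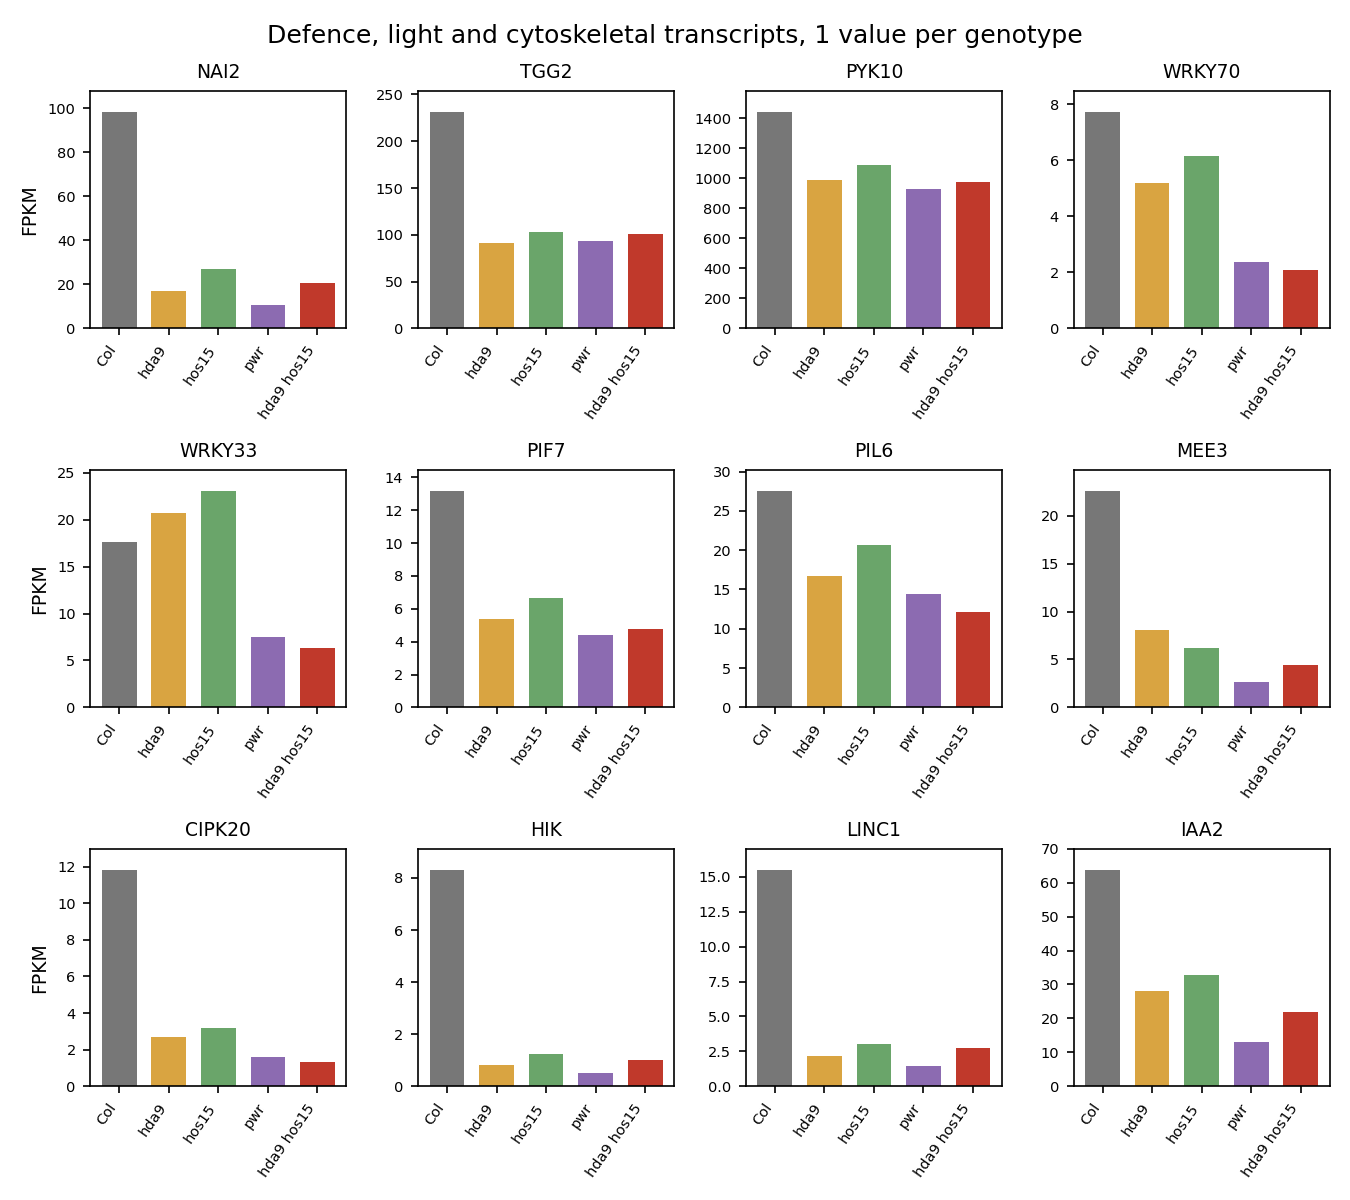
Bars give the deposited FPKM of 12 genes for the 5 genotypes, 1 value each, each on its own axis from 0. WRKY33 is higher than Col in hda9 and hos15 and lower in pwr and the double mutant, while for the other 11 genes every mutant lies below Col.

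Many cytoskeletal and nuclear coiled-coil genes were lower, and here the sequence of the transcripts moved with the result. Of 36 kept kinesin-related genes, microtubule motors, 17 were lower and 0 higher, with a median of -0.93. HIK, a kinesin that guides the growing cell plate in dividing cells, reached 0.999 FPKM in the double mutant, where Col had 8.30, hda9 0.808, hos15 1.26 and pwr 0.514. Of 20 kept genes for nuclear lamina-like, chromosome-maintenance and actin-membrane NET proteins, 11 were lower and 0 higher, with a median of -1.14. LINC1, a lamina-like protein that sets nuclear shape, was at 15.5 FPKM in wild-type Col seedlings, at 2.19 with hda9, 3.02 with hos15, 1.48 with pwr and 2.76 with both lesions. For both genes the 4 mutants lay far below Col and near one another. Both families were grouped after the data were seen. After sequence adjustment their medians were -0.36 and -0.35, with 2 and 1 members lower.

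The adjustment addresses a trend with transcript sequence that runs through the table. The 673 lower protein-coding genes of at least 300 nt had a median transcript of 2057 nt with 54.8% purine (A + G) and 6 exons. The 227 higher genes had 1019 nt, 47.3% purine and 1 exon, with 54.6% of them single-exon genes. All 18079 such genes had 1714 nt, 50.6% purine and 4 exons, with 15.7% single-exon genes. Above 58% purine 50% of genes were lower and 0.431% higher, and at or below 46% purine 0.485% were lower and 6.95% higher. A joint fit on purine content, its richest 100-nt stretch, length and GC content took up 34.6% of the variance in log2 ratio. The same fit took up 35.1% in hda9, 29.1% in hos15 and 42.7% in pwr, so the trend is not particular to the double mutant, and with 1 Col value shared by all 4 ratios a property of the mutants and one of the Col value cannot be told apart. The residuals, called sequence-adjusted here, gave 148 higher (0.819%) and 216 lower (1.19%) genes against 227 (1.26%) and 673 (3.72%) before. Of the calls, 104 of the higher and 149 of the lower genes were kept. What this trend reflects was not tested.

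**Figure D4:**
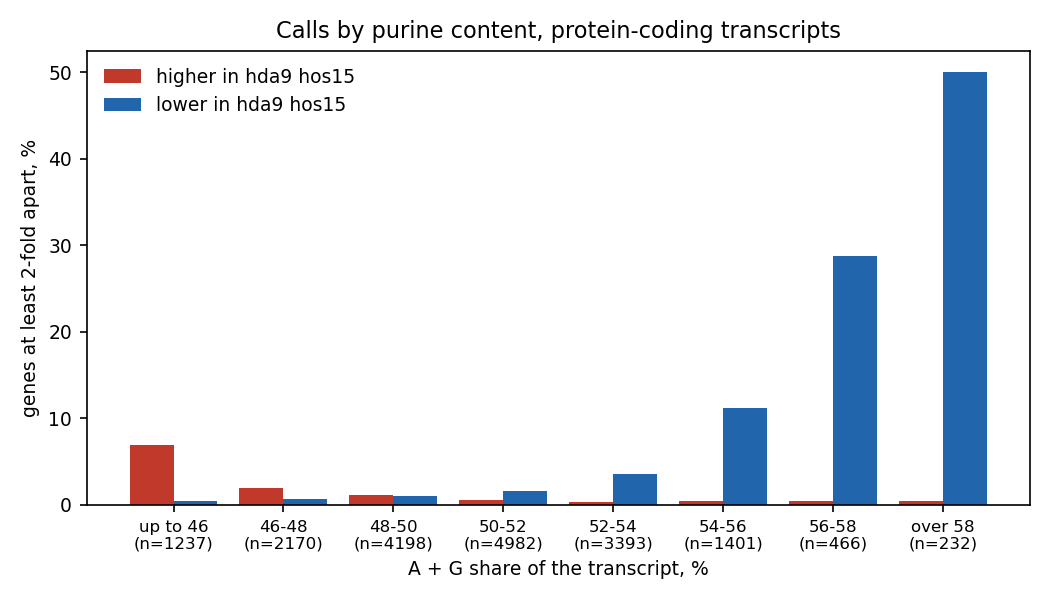
Bars give the percentage of kept protein-coding genes, in 8 ranges of transcript purine content, that were at least 2-fold higher (red) or lower (blue) in the hda9 hos15 double mutant than in Col. The lower share climbs from 0.485% at or below 46% purine to 50% above 58%, and the higher share goes from 6.95% down to 0.431%.

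Coding stretches of 6 genes are shown because they make this difference visible: the 3 most purine-rich of the 14 largest named falls and the 3 least purine-rich of the 14 largest named rises. Each is 60 nt of the RefSeq coding sequence in TAIR10.1, 5′ to 3′ on the coding strand, at the point of highest purine content for the falls and lowest for the rises; capitals mark A and G.
MBD10: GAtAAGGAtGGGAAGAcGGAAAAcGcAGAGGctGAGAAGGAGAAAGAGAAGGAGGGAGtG
CIP1: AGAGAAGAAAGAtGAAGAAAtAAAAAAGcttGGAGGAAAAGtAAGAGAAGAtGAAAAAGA
3xHMG-box2: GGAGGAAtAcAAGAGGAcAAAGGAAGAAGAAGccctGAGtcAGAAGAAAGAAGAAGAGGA
AGP27: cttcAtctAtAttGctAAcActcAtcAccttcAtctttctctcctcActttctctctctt
AGP10: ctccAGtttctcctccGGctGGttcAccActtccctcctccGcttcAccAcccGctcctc
YLMG1-2: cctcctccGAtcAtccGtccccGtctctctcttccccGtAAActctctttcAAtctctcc
The falls hold 52, 53 and 51 purines of 60 and the rises 11, 12 and 11, in the order shown. MBD10, a methyl-CpG-binding-domain protein, lies on chromosome 1 (positions 385 to 444 of its coding sequence), and its FPKM was 47.4 in Col and 11.0 in the double mutant. CIP1, a coiled-coil partner of COP1, lies on chromosome 5 (4530 to 4589), with a log2 ratio of -1.88, or -0.35 adjusted. 3xHMG-box2, a chromatin protein, lies on chromosome 4 (951 to 1010), with 32.3 and 6.56 FPKM. AGP27 lies on chromosome 3 (5 to 64), AGP10 on chromosome 4 (191 to 250) and YLMG1-2, a chloroplast protein of the YGGT family, on chromosome 4 (64 to 123), where FPKM was 1.37 and 6.49, 87.5 and 281, and 77.2 and 221.

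The Polycomb and Trithorax list lay low without a call, and other chromatin lists lay closer to Col. Of 20 kept Polycomb and Trithorax group genes, which maintain silent and active states, 18 lay below Col and 0 were called, with a median of -0.58, or -0.18 adjusted. PKL, a chromatin remodeller, measured 16.1 FPKM in Col, then 7.41 (hda9), 9.46 (hos15), 5.47 (pwr) and 8.27 (double mutant). Of 10 histone acetyltransferases, the enzymes opposite to HDA9, 1 was lower, HAF01, at 6.86 and 2.29 FPKM, and its adjusted log2 ratio was -0.41. Of 14 histone deacetylases HDA9 was the single call, with a median of -0.04 and 7 members on either side of Col. DNA methylation and silencing genes had 3 lower and 0 higher of 33, with a median of -0.14, and 0 calls after adjustment. Core histones and chaperones had 1 lower and 0 higher of 32, with 21 above Col and a median of 0.10.

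Cell cycle and clock genes had calls on the lower side alone. Of 46 cell cycle genes 4 (8.70%) were lower, against 3.91% of all rows, and 0 higher, all cyclins, with CYCB2;2, a mitotic cyclin, with a log2 ratio of -1.19, and 1, CYCD6;1, was lower after adjustment. SIM, an inhibitor of mitosis that promotes endoreduplication, had the highest value of the list, at 25.1 FPKM in Col but 49.5 with both lesions, under the rule. Of 24 clock genes 3 (12.5%) were lower and 0 higher: LNK1, PRR7 and LNK2, a co-activator of evening genes, with Col at 18.0 FPKM and hda9, hos15, pwr and hda9 hos15 at 7.50, 6.56, 5.43 and 4.83. After adjustment LNK2 stayed lower, at -1.56, while PRR7 and LNK1 did not, at -0.90 and -0.66. Of 35 flowering-time genes 1 (2.86%) was lower, LD, which is near the share of all rows, and the floral repressor FLC had a log2 ratio of 0.68. Among 313 ribosomal protein genes, grouped after the data were seen, 4 were higher and 1 lower, with a median of 0.26, or 0.18 adjusted. Lists without a call in the double mutant included ethylene synthesis and signalling (18 genes), suberin and root barrier genes (21), dark- and sugar-starvation-inducible genes (18) and the abscisic acid receptors, phosphatases and kinases (18). Lists this short can lack a call when 5.39% of all rows are called.

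**Figure D5:**
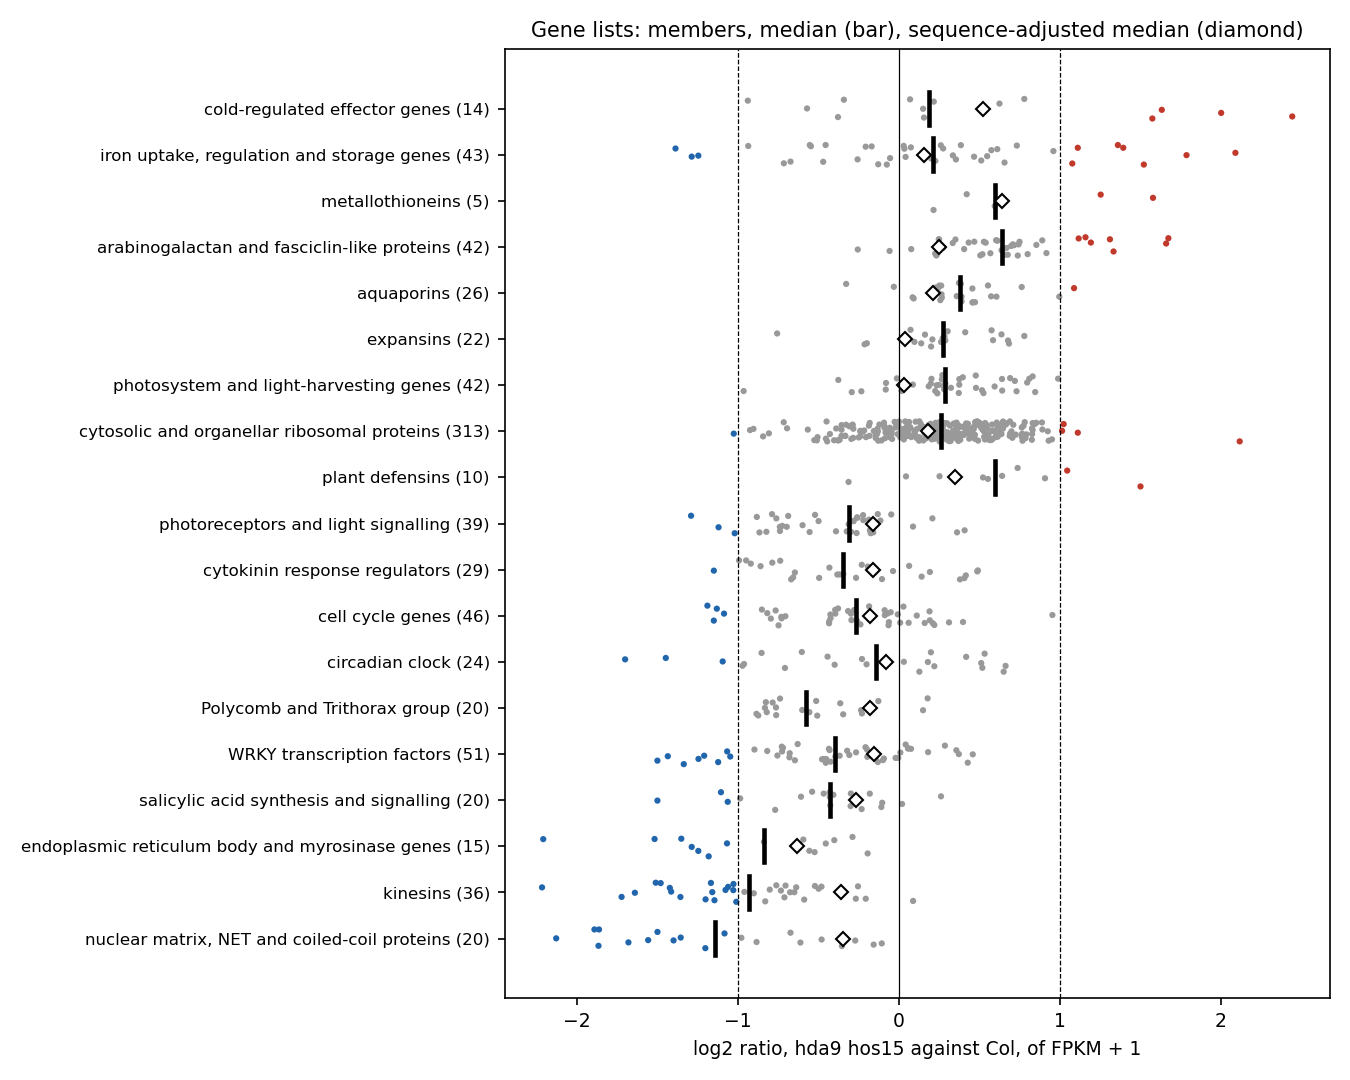
Each point is a kept member of the list named on the vertical axis, with the number of kept members in brackets, and the horizontal axis gives its log2 ratio of FPKM + 1 in the hda9 hos15 double mutant against Col; black bars are medians, open diamonds medians after sequence adjustment, and dashed lines 2-fold. The medians run from 0.64 for arabinogalactan and fasciclin-like proteins to -1.14 for nuclear coiled-coil proteins, and adjustment moves that last median to -0.35 but the endoplasmic reticulum body median only to -0.63.

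Short and non-coding rows gave the most extreme ratios and the least certain ones. Of the called rows, 7 of 29 kept snoRNA rows were higher and 7 lower, and over all kinds 16 higher rows were listed at 0 in Col and 44 lower rows at 0 in the double mutant, against which no fold can be given. The snoRNA row AT3G47347, for example, had 195 FPKM in Col and 224 in pwr, lower values of 72.9 in hda9 and 76.4 in hos15, and was listed at 0 in the double mutant. The tRNA row AT1G28730 stood at 143 FPKM in Col, was listed at 0 in hda9 and the double mutant, and stood at 75.9 in hos15 and 153 in pwr. Such rows flip between 0 and high values among the genotypes.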

How the data were processed

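FPKM values per gene were used as deposited by the authors, who gave 1 value per gene and genotype; the wild-type column names no library and was taken as Col. TopHat2, Cufflinks, Cuffdiff and the TAIR10 build are named by the submitters' processing notes, without versions. The labels call the 2 libraries biological duplicates, and the sources used here do not state how they were combined. Depth is unknown, and all 271 organelle rows are listed at 0. Symbols, transcripts and sequences came from RefSeq's annotation of TAIR10.1, matched by locus code for 32350 of 33297 rows.

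Rows at 1 FPKM or more in 2 or more of 5 genotypes were compared as log2(FPKM + 1), with a pseudocount of 1, and called at 2-fold; the model planned for single libraries could not be fitted. Residuals on additive cubic splines (5 knots each) of purine percentage, its 100-nt maximum, log2 length and GC percentage gave the sequence-adjusted values (protein-coding transcripts of at least 300 nt). Of 1319 members of 51 gene lists, 1308 matched the annotation; 8 families were added after the data were seen. The members and lists were chosen with earlier results of these data known.

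Named genes, at 2 FPKM or more in the higher genotype, were the 14 largest rises and falls with a symbol, 4 each way without one, 6 each way in FPKM, 3 each way among non-coding rows, the mutated genes with their neighbours, and up to 4 members per list, or any member of a list whose median lay beyond 0.3. Other genes named beside these, those of the added families and the 3 motifs were picked after their values were seen. The procedures were run on simulated data with a straight-line purine trend and changes placed without regard to sequence. That setting is simpler than these data and lends the calls no support. Python 3.11.15, pandas 2.3.3, numpy 2.4.6, scikit-learn 1.9.0 and matplotlib 3.10.9 were used.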

Additional observations from a re-analysis of the deposited data

How the results depend on the processing

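The calls rest on 1 pooled value per genotype, so no replicate could be left out and no error is known. No paired analysis was possible because the 2 libraries of each genotype have no separate values. In hda9 hos15 against Col, genes called higher numbered 281, and in hda9 hos15 against Col, genes called lower numbered 739. A pseudocount of 0.1 gave 427 and 1211 and one of 5 gave 147 and 190. A mean FPKM of at least 5 left 13512 rows, of which 360 (2.66%) were lower and 1.78% higher. The higher share of the calls was 40% there, against 27.5% in the main setting. Protein-coding genes of at least 300 nt alone gave 227 and 673, the base for the next 2 settings. Among these, sequence adjustment gave 148 and 216, and leaving out genes that overlap another, chosen after seeing the data, gave 181 and 450 of 12463 genes, shares of 1.45% and 3.61% against 1.26% and 3.72%. A 1.5-fold rule gave 1353 and 2506 and a 3-fold rule 53 and 155. Scaling by median ratios gave 335 and 624. Under quantile normalization there were 348 and 523, which moves the higher share of the calls from 27.5% to 40.0%. The median of the abscisic acid and drought response list turned from -0.31 to 0.0431 with sequence adjustment and to 0.0368 among protein-coding genes without an overlap, and that of the blue copper and plastocyanin-like proteins, grouped after the data were seen, from 0.32 to -0.161 with sequence adjustment. The cause of these changes was not tested. Leaving out rows listed at 0 in either genotype, also chosen after seeing the data, gave 265 and 695.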

Other observations

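Several rows of one locus-code block on chromosome 2, from AT2G07671 to AT2G07835, stood apart in the double mutant. AT2G07751, annotated as a NADH:ubiquinone oxidoreductase chain, had 27.4 FPKM there, while Col had 2.68, hda9 6.67, hos15 5.57 and pwr 3.25. AT2G07675, annotated as a ribosomal protein of the S12/S23 family, had 35.3 there, while Col had 7.37, hda9 16.7, hos15 10.2 and pwr 6.44. The tRNA-Asp row AT2G07743 had 1009 there, while the other 4 genotypes ranged from 94.2 to 194. The pseudogene row AT2G07688 went down to 28.6, while Col had 124, hda9 80.1, hos15 146 and pwr 93.7, and AT2G07671 had 3.76 there and 9.75 in Col. Other rows of the block, such as MCM5 with a log2 ratio of -0.09, did not stand apart. These rows were picked after their values were seen. The block also holds rows annotated as cytochrome b, cytochrome c oxidase subunit III and a subunit of the plant mitochondrial ATPase, while all 271 organelle rows are listed at 0. Whether reads of mitochondrial transcripts were counted in this block was not tested.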
